A study of Rattus norvegicus with 4 samples.

Results

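The genes described here are 31 genes of cholesterol and fatty acid synthesis, measured in single cells of rat dorsal root ganglia. They were chosen by name, as features whose gene symbol equals a symbol on the list, and all 31 were found among the 25629 features of the count tables. The list holds 18 enzymes of sterol synthesis, 3 sterol regulators (Insig1, Srebf1 and Srebf2) and 1 sterol transport gene (Stard4), together called the sterol members (22 genes). The other 9 are the fatty acid members. The rule uses no expression value, but the list was drawn up with earlier results of these data known.

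The ganglia hold the cell bodies of sensory neurons and were taken from the L4 to L6 levels of the operated side of male Sprague-Dawley rats, described in the series text as wild type and naive. The Sham group comprised 2 libraries, Sham 1 and Sham 2, and the CPIP group 2 libraries, CPIP 1 and CPIP 2, each from dissociated ganglia of 3 pooled rats. The labels do not spell out CPIP, which in the field stands for chronic post-ischaemia pain, and give no time after surgery and no age. Single cells were loaded on a BD Rhapsody cartridge, where a bead tags the transcripts of each cell, and transcripts were counted as unique molecular identifiers (UMIs). Values for the 4 libraries are given below in the order Sham 1, Sham 2, CPIP 1, CPIP 2.

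Cholesterol is built from acetyl-CoA through mevalonate, isoprenoids and squalene, and the ring is then trimmed in a series of oxidation and reduction steps. The transcription factor encoded by Srebf2 drives these genes when sterols are low, and that encoded by Srebf1 mainly drives fatty acid synthesis. Insig1 holds both factors in the endoplasmic reticulum when sterols are high. Glial cells of peripheral ganglia and nerves make much of their own lipid, and Schwann cells need it for myelin, while satellite glia wrap the neuronal cell bodies.

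The libraries held 11829 to 12828 cell barcodes and 60885664 to 64550637 UMIs, and 10668 to 11566 cells per library were kept. Pairs of libraries shared between 1 and 5 barcodes. Cells were clustered without the 31 genes, and clusters were named by their likeness to marker lists, so a class name is a likeness and not a proven identity. Satellite glia numbered 4098, 4273, 4203 and 4539 cells, and neurons 2953, 2672, 2599 and 2295. Clusters of low UMI content, which were left unnamed, held 11.6% to 17.9% of the cells. UMIs of a class were summed per library and scaled to 1000000 UMIs of that class and library (CPM). Sums for satellite glia rested on 21526477 to 26549421 UMIs per library, those for macrophages on 342164 to 889881 and those for pericytes on 97544 to 146212. CPM are not corrected for transcript length, so levels are compared here between classes and libraries for the same genes and not between genes.

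Across cell classes, the members were highest in satellite glia. Of the 31 genes, 23 had their highest mean level in this class, and for 20 of these every satellite glia library lay above every library of the next class. Neurons were the highest class for 5 members, and myelinating Schwann cells, non-myelinating Schwann cells and pericytes for 1 each. For 3 of the neuronal members every neuron library lay above every library of the next class. The Schwann and pericyte maxima (Acaca, Srebf2 and Mvk) overlapped with the next class, and Mvk in pericytes was at 4.27 ± 5.13 CPM (SD, n = 4 libraries). Endothelial cells were the lowest class for 24 members.

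**Figure D1:**
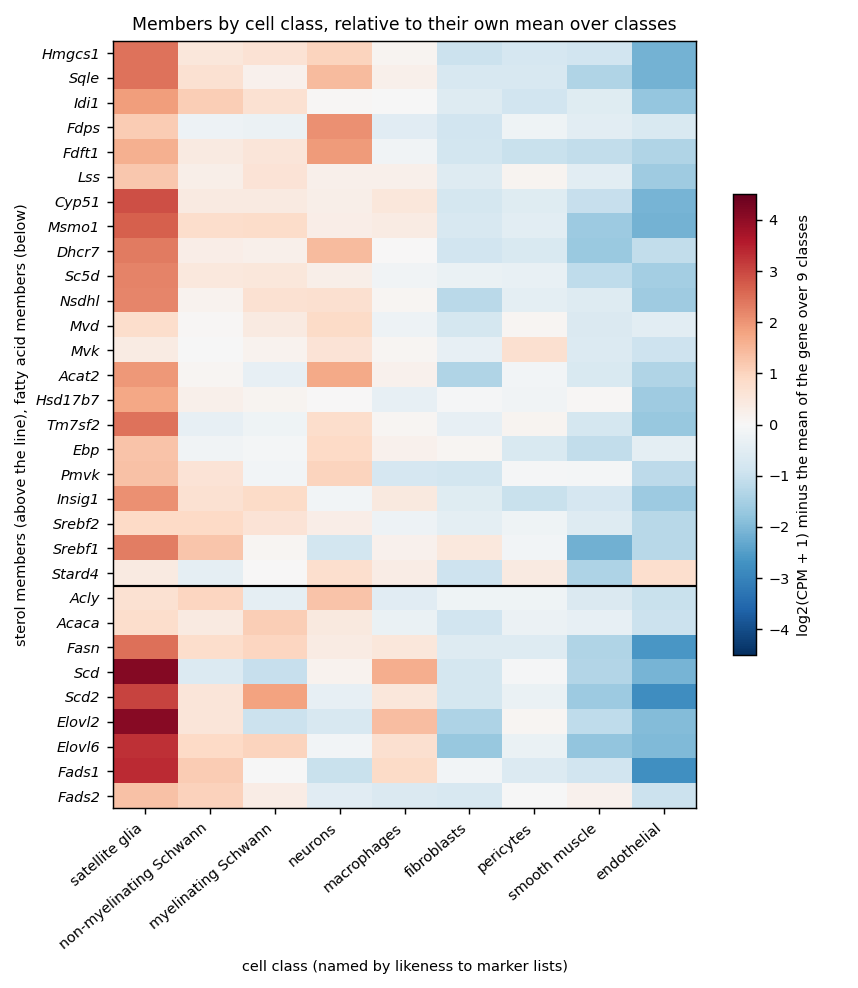
Level of each of the 31 members in 9 cell classes, as log2(CPM + 1) of the mean over 4 libraries minus the mean of that gene over the 9 classes (colour). Rows are genes, with sterol members above the line and fatty acid members below, and columns are classes; the satellite glia column is the darkest red for most genes, while Fdps, Fdft1 and Acly are darkest in neurons.

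The summed level of the sterol members in satellite glia was 13472, 12998, 14782 and 13898 CPM, a mean of 13787 ± 758 (SD, n = 4 libraries). Neurons had 5033, 4945, 5278 and 4897 CPM, non-myelinating Schwann cells 4476.6, 3602, 5026 and 4866, and myelinating Schwann cells 4262, 3883, 4281 and 3952. No library of these other classes reached any satellite glia library, and the mean of satellite glia was 2.74-fold that of neurons. The neuron libraries lay above the myelinating Schwann libraries without overlap, but non-myelinating Schwann cells overlapped with both.

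The order of the other classes was different for the fatty acid members. Their sum in satellite glia was 23514, 23119, 21522 and 22341 CPM. Myelinating Schwann cells followed with 7658, 7371, 7539 and 7284 CPM, and neurons had 2345, 2289, 2245 and 2169. Satellite glia thus held a 10.0-fold higher mean than neurons and a 3.03-fold higher mean than myelinating Schwann cells. In every class of glia the sum rested mainly on Scd2, a stearoyl-CoA desaturase that makes monounsaturated fatty acids, which gave 16828, 16605, 15262 and 15700 CPM in satellite glia. Scd and Scd2 are related genes, and how reads shared between such copies were counted is not given in the sources used here.

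**Figure D2:**
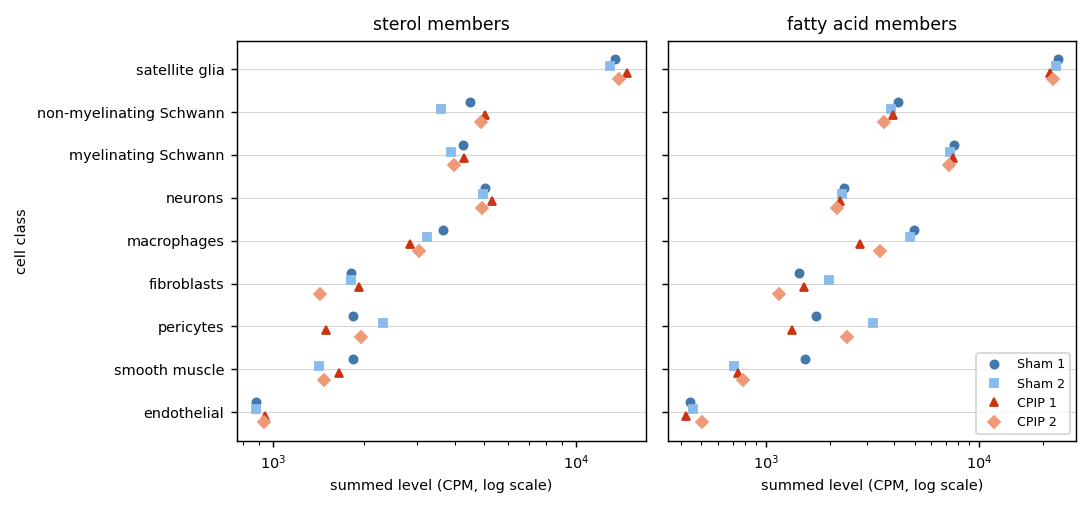
Summed level of the 22 sterol members (left) and the 9 fatty acid members (right) in CPM on a log axis, by cell class, with 1 point per library. Satellite glia lie to the right of all other classes in both panels; neurons are among the next highest classes for sterol members and well below both Schwann classes for fatty acid members.

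A fit over 9 classes with library as a block gave the tests of these differences (edgeR quasi-likelihood test, adjusted p under 0.05). It included 10081 genes and 28 of the 31 members. Mvd, Mvk and Fads2 did not pass its low-count filter. Against neurons, 24 members were higher in satellite glia, where 41.6% of all genes were called higher, and 4 were lower, where 47.6% were called lower. The median log2 difference was 1.25 for 20 sterol members and 3.41 for 8 fatty acid members, against -0.14 for all genes.

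The widest gaps to neurons belonged to fatty acid elongation and desaturation. Elovl2, which elongates polyunsaturated fatty acids, had a log2 difference of 4.82 (SE 0.109), with 1897 ± 110 CPM in satellite glia and 67.0 ± 4.13 in neurons (SD, n = 4). Fads1, a desaturase that acts on the same fatty acids, differed by 4.39 (SE 0.120). Scd and Elovl6, which elongates saturated chains, differed by 3.99 and 3.43, and Scd2 was 10.5-fold higher. Srebf1 is counted here among the sterol members, although the factor it encodes mainly drives fatty acid synthesis. It was at 165 ± 18.7 CPM in satellite glia and 17.9 ± 2.14 in neurons, a log2 difference of 3.19, whereas Srebf2 differed by 0.60. Among sterol enzymes the largest difference was that of Cyp51, the lanosterol demethylase (2.64, SE 0.0863), followed by Msmo1, a methylsterol oxidase (2.39, SE 0.0866).

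The 4 members that were lower in satellite glia than in neurons were Fdps, Acly, Stard4 and Fdft1. Fdps, farnesyl diphosphate synthase, stands where the isoprenoid branch leaves the sterol path. It was at 376, 430, 502 and 419 CPM in satellite glia and 787, 853, 876 and 762 in neurons, a log2 difference of -0.93 (SE 0.0775). Acly, which supplies acetyl-CoA from citrate, differed by -0.61 (SE 0.0737), and Fdft1, squalene synthase, by -0.32 (SE 0.0657). All neuron libraries lay above all satellite glia libraries for Fdps, Fdft1 and Acly. Stard4, a carrier of cholesterol between membranes, differed by -0.37 (SE 0.0808). With no low-count filter Stard4 and Fdft1 were not called, at -0.12 and -0.06.

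Against non-myelinating Schwann cells, 27 members were higher in satellite glia (25.5% of all genes called higher) and none was lower (25.2% called lower). Scd (4.97, SE 0.144), Elovl2 (3.82, SE 0.125) and Tm7sf2, a sterol reductase (3.06, SE 0.174), differed most. Acly was the member not called, at -0.04. Scaling by library totals moved the median of all genes from -0.02 to -0.27 in this contrast and gave 25 members higher and 1 lower. The shares of all genes called with that scaling are not reported here. Against myelinating Schwann cells, 26 members were higher (27% of all genes called higher), with Scd (5.19, SE 0.149), Elovl2 (5.07, SE 0.144) and Fads1 (10.5-fold) at the top. Acaca, the acetyl-CoA carboxylase that starts fatty acid synthesis, was lower in satellite glia by 0.35 on the log2 scale (28.3% of all genes called lower). Of all genes 55.3% differed in this contrast. The call of Acaca was lost without Sham 1, without Sham 2, without CPIP 1 and with no low-count filter.

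Myelinating and non-myelinating Schwann cells differed in 14 members, where 28.9% of all genes did. Higher in myelinating cells were 9 (14.8% of all genes called higher), led by Scd2 at 6861 ± 142 against 2919 ± 156 CPM (2.82-fold, SE 0.141 on the log2 scale), Acaca (0.94, SE 0.191) and Nsdhl (0.80, SE 0.127). Lower were 5 (14.1% called lower), namely Elovl2 (-1.26), Acly (-1.14), Fads1 (-0.91), Srebf1 (-0.85) and Pmvk (-0.53), which phosphorylates phosphomevalonate. With library totals the median of all genes moved from 0.01 to -0.24, and 3 members were higher and 9 lower. The shares of all genes called with that scaling are not reported here, and the 14.8% and 14.1% do not apply to these counts. Without CPIP 2 the higher members numbered 5.

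Free RNA of an abundant class can be counted in cells of others, so the markers of satellite glia were measured in the same way as the members. The 14 satellite glia markers stood in neurons at a median of 2.30% of their satellite glia level, the sterol members at 49.0% and the fatty acid members at 9.44%. The markers ranged in neurons from 1.37% to 1950%, the latter for Kcnj3, which was at 0.531 CPM in satellite glia. Pou3f1 stood at 4351% in myelinating and Lgi4 at 207% in non-myelinating Schwann cells, so not every marker was highest in satellite glia. In macrophages the same medians were 17.4% for the markers, 24.8% for sterol members and 17.4% for fatty acid members. Scd2, Scd, Elovl2, Elovl6 and Fads1 stood in macrophages at 17.4%, 17.4%, 15.5%, 17.1% and 17.4% of their satellite glia level, near the median of the markers, which ranged from 12.7% to 177%. In endothelial cells the medians were 3.42%, 8.42% and 2.47%, with the markers from 0.983% to 197%.

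Satellite glia fell into 5 clusters. Mean sterol sums were 14309 CPM in cluster 0 and 15842 in cluster 1 (both led by genes such as Spp1, Fbln2 and Fabp7). The sum was 9770 in cluster 2 (Sox10, Gpr37l1, Kcnj10), 14813 in cluster 4 (Inhba, Gbp2, Cxcl10) and 9406 in cluster 5 (Cdh19, Itih5, Lpar1). Fatty acid sums were highest in cluster 0 at 26260 CPM and lowest in cluster 5 at 16395. Cluster 4 thus had a sterol sum near that of clusters 0 and 1 and a fatty acid sum of 18480, below both.

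Neurons fell into 8 clusters. The sterol sum was lowest in the cluster led by Cbln2 and Slc17a7, with 2888 to 3357 CPM over the 4 libraries, and highest in the cluster led by Penk and Scgn, with 5411 to 6227. Clusters led by Iapp and Crh (5494 ± 139), by Adcyap1 and Calca (5394 ± 237) and by Nmu and Tafa4 (5702 ± 250) lay near the top. Those led by Pvalb (3876 ± 63.9) and Sst (3624 to 4113) lay lower without overlapping with these 3 (SD, n = 4 libraries). The lowest library of any satellite glia cluster, 7764 CPM, was above every library of every neuron cluster.

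The comparison of the series is CPIP against Sham, and it was made within each class. In satellite glia no member was called by edgeR. The same held for all 13052 genes tested (0% called), and 441 genes (3.38%) had an unadjusted p under 0.05, among them Idi1, Msmo1, Nsdhl and Sqle. Adjusted p-values of the 31 members lay between 0.974 and 0.995. DESeq2 called 8 of 18786 genes and no member. Members are therefore described by their values, and they were chosen with earlier results of these data known. Of 22 sterol members 20 had a log2 fold change above 0, where 52.4% of all genes did, with a median of 0.16 against 0.01 for all genes. In 10 of them both CPIP libraries lay above both Sham libraries, where 13.1% of all genes did so, and in none below. Of the 9 fatty acid members 3 were above 0, the median was -0.09, and in 6 both CPIP libraries lay below both Sham libraries, where 19.6% of all genes did so. Without CPIP 2 the fatty acid members above 0 numbered 1, and without Sham 1 their median was -0.06. With 2 libraries a group an exact permutation test cannot go below p = 0.33, so absence of overlap is a description.

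**Figure D3:**
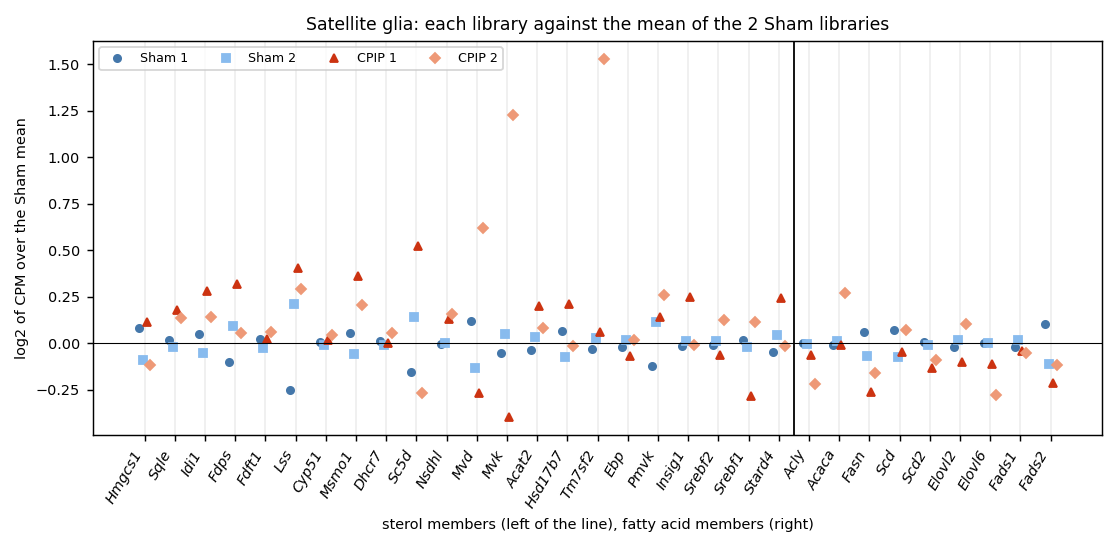
Level of every member in each library of satellite glia, as log2 of its CPM over the mean of the 2 Sham libraries (vertical axis), with sterol members left of the line and fatty acid members right. CPIP points of Idi1, Msmo1, Sqle and Nsdhl lie above both Sham points and those of Fasn, Scd2 and Elovl6 below; Tm7sf2 and Mvk stand out in CPIP 2 only.

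The first steps of the sterol path make and use mevalonate. Acat2, which joins acetyl-CoA units, was at 341, 358, 402 and 370 CPM, and Hmgcs1, HMG-CoA synthase, at 2666, 2366, 2725 and 2321. Both CPIP libraries were above Sham for Acat2 (log2 fold change 0.16, SE 0.0761), and the groups overlapped for Hmgcs1 (0.02, SE 0.108). Pmvk was at 74.7, 87.8, 89.5 and 97.3 CPM (0.22), with CPIP above Sham by less than the spread within Sham. Mvk and Mvd, the other enzymes between mevalonate and isoprenoids, were near the limit of these data with 43 to 145 and 77 to 155 UMIs per library.

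Idi1 isomerises the isoprenoid unit. It was at 2150, 2005, 2529 and 2290 CPM, and CPIP lay above Sham in both libraries (0.23, SE 0.0832). Fdps (0.21) had the values given above, and CPIP 2 lay below Sham 2. Fdft1 was at 205.1, 198.5, 205.4 and 210.4 CPM (0.06).

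Squalene is then oxidised, closed and trimmed. Sqle, squalene epoxidase, was at 919, 897, 1027 and 997 CPM (0.17, SE 0.0650). Lss, which closes the ring, was at 17.6, 24.3, 27.8 and 25.7 CPM (0.36, SE 0.173), so that Sham 2 was close to CPIP. Cyp51 was at 3449, 3404, 3468 and 3539 CPM (0.05), and its 4 libraries lay within a few percent of each other.

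Msmo1 had the smallest p of all members in satellite glia. It was at 1226, 1134, 1519 and 1361 CPM, with both CPIP libraries above both Sham libraries (0.30, SE 0.0858). Nsdhl, which works with Msmo1 in removing methyl groups, was at 295.1, 295.5, 323.9 and 329.9 CPM (0.16, SE 0.0631). The Sham libraries were nearly equal and so were the CPIP libraries. Hsd17b7, the third enzyme of that removal, was at 20.02, 18.2, 22.1 and 18.9 CPM (0.12) and overlapped. The late enzymes Ebp (76.0, 78.0, 73.4 and 77.9 CPM) and Dhcr7 (253, 250, 251 and 261 CPM) overlapped as well.

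Regulators and transport overlapped between the groups. Insig1 was at 797, 811, 957 and 800 CPM (0.14, SE 0.102), high in CPIP 1 only. Srebf2 was at 193, 196, 186 and 213 CPM (0.05) and Srebf1 at 171, 166, 138 and 183 (-0.05), each with CPIP 1 lowest and CPIP 2 highest. Stard4 was at 14.8, 15.8, 18.1 and 15.1 CPM (0.14).

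Among fatty acid members, Fasn, the fatty acid synthase, was at 290, 265, 231 and 248.7 CPM (-0.19, SE 0.0780). Elovl6 was at 715, 715, 662 and 591 CPM (-0.17, SE 0.0807), and Acly at 224, 223, 214 and 192 (-0.12, SE 0.0794). In all 3 both CPIP libraries were the lower ones. Scd2 was lower in both CPIP libraries too (-0.09, SE 0.0762), as were Fads1 (1135, 1168, 1120 and 1112 CPM) and Fads2 (6.55, 5.65, 5.26 and 5.64 CPM), where Sham 2 and CPIP 2 were almost equal. Scd (2410, 2183, 2223 and 2416 CPM), Elovl2 (1870, 1918, 1767 and 2033 CPM) and Acaca (36.0, 36.6, 36.2 and 43.8 CPM) overlapped.

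The ratio of the sterol to the fatty acid sum in satellite glia was 0.573, 0.562, 0.687 and 0.622, higher in both CPIP libraries. It was also higher in both CPIP libraries in each of the 5 clusters taken alone, for example 0.523, 0.513, 0.585 and 0.560 in cluster 0 and 0.526, 0.498, 0.687 and 0.588 in cluster 5. The clusters share their libraries and are not replicates of each other. Cluster 5 made up 17.2%, 18.7%, 26.9% and 19.6% of satellite glia. Within clusters 0, 1, 2, 4 and 5 the median log2 fold change of the sterol members was 0.17, 0.17, 0.18, 0.23 and 0.32, and that of the fatty acid members -0.02, -0.05, -0.08, 0.04 and 0.01. No member was called in any cluster (0% of all genes called in each). Msmo1, Idi1 and Sqle had both CPIP libraries above both Sham libraries in all 5 clusters, as 8 to 15 sterol members did in a given cluster, where 12.5% to 15.4% of all genes did so. The largest log2 fold change of Msmo1 was in cluster 5 (858, 653, 1120 and 997 CPM, 0.50, SE 0.136), and the smallest in cluster 0 (0.28, SE 0.0782). Without CPIP 2, the log2 fold change was 0.46 for Msmo1 and 0.57 for Sc5d in cluster 4, and 0.79 for Sc5d in cluster 5. Without CPIP 1, it was 0.50 for Acat2 in cluster 5 and 1.51 to 1.84 for Tm7sf2 over the 5 clusters. Tm7sf2 in cluster 4 was at 1.15 without Sham 1 and 0.97 without Sham 2. These are named because they passed the threshold in those fits, where the shares of all genes passing are not reported here.

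**Figure D4:**
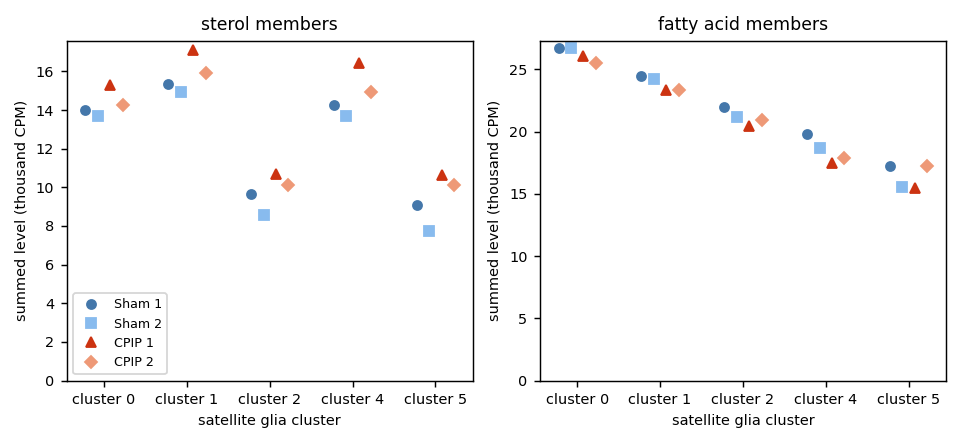
Summed level in CPM divided by 1000 of the sterol members (left) and the fatty acid members (right) in the 5 satellite glia clusters, with 1 point per library. Both CPIP libraries lie above both Sham libraries for sterol members in every cluster, at 13688 to 15280 CPM in cluster 0 and 7764 to 10638 CPM in cluster 5; for fatty acid members the CPIP points lie lower in clusters 0, 1, 2 and 4 and overlap with Sham in cluster 5.

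Markers of other classes and lists of stress genes were measured beside the members in satellite glia. Of the 14 satellite glia markers 1 had a log2 fold change above 0 (median -0.15), and their sum was 10005, 11176, 9236 and 9366 CPM. Of the markers of myelinating Schwann cells 8 of 11 were above 0 (median 0.16, sum 5185 to 6087 CPM in Sham and 5702 to 5761 in CPIP), and of those of non-myelinating Schwann cells 9 of 10 (median 0.15, sum 2869 to 2898 and 2816 to 3123). Macrophage markers summed to 8.10 to 13.4 CPM in Sham and 12.2 to 17.4 in CPIP, with Cd163 at 0 in all libraries. Inflammation genes of glia were above 0 in 9 of 10 (median 0.23, sum 9509 to 10477 CPM in Sham and 9745 to 10754 in CPIP), and genes induced by dissociation in 6 of 12. The part of these lists in the member values was not tested.

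The promoters of the members were examined for motifs of the factors that drive this pathway. Windows from 250 bases before to 50 bases after the start of transcription were available for 24 of the 31 members, from RefSeq (build GRCr8). Motifs were searched on both strands. Elovl2 and Srebf1 had more than 1 window, and a member counted as matched if any of its windows held the motif. The share over all windows counts each window singly. The sterol regulatory element of the LDL receptor promoter was found in 0 of 24 members and in 0.125% of all 33469 windows. A form with 1 free base was found in 0 of 24 members and in 0.269% of all windows. CCAAT, the core of the NF-Y motif, was in 18 of 24 (75%) and in 37.5% of all windows. GGGCGG, the core of Sp1 sites, was in 20 of 24 (83.3%) and in 33.1%, and the E box CACGTG in 2 of 24 (8.33%) and in 6.42%. Every match of the first form is a match of the second, and none of the other motifs contains another. A match describes the letters and does not show that a factor binds, and the lack of a match holds for these letters and windows only.

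The following sequences are the 250 bases before the start of transcription of Msmo1 (chr16:29746863-29747112, plus strand), Idi1 (chr17:66547525-66547774, minus strand), Nsdhl (chrX:155817110-155817359, plus strand) and Scd2 (chr1:253118127-253118376, plus strand). The first 3 are sterol enzymes with a small unadjusted p in satellite glia, and Scd2 carries most of the fatty acid sum; they were chosen after their values were seen. Each is written 5′ to 3′ on the strand of the gene, and capitals mark CCAAT or ATTGG, the same motif on the opposite strand.
Msmo1: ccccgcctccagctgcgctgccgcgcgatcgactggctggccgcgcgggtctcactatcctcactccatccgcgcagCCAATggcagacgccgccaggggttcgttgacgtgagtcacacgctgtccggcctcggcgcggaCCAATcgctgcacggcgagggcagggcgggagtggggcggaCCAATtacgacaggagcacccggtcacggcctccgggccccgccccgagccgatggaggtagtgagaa
Idi1: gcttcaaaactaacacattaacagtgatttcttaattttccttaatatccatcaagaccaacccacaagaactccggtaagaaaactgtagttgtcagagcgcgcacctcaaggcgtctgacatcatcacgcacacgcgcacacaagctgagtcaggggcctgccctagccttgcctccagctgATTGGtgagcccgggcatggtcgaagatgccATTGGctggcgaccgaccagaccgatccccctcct
Nsdhl: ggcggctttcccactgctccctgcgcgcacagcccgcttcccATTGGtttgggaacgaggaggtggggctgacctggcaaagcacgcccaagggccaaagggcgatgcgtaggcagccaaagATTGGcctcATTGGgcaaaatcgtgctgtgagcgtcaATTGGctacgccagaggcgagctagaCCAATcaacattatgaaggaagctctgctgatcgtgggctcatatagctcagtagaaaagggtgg
Scd2: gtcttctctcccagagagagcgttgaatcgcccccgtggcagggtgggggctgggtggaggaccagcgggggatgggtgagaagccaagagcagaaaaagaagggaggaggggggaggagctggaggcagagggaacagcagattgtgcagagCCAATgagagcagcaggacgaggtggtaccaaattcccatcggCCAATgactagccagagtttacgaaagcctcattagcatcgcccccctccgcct
Within these bases Msmo1 holds 3 such motifs, Nsdhl 5, Idi1 2 and Scd2 2. CCAAT was in 18 of 24 members with a window and in 37.5% of all windows. Its relation to the CPIP values was not tested.

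Neurons had no called member (0.00733% of all genes called). The sterol members had a log2 fold change above 0 in 15 of 22 and a median of 0.08, where 51.5% of all genes were above 0. Without CPIP 1 that median was 0.03. In 7 both CPIP libraries were above both Sham libraries (15% of all genes) and in 2 below (17.9% of all genes). Msmo1 was at 234, 220, 274 and 268 CPM (0.27, SE 0.0743), with both CPIP libraries above Sham. Lss was at 9.20, 10.7, 13.9 and 12.5 CPM (0.42, SE 0.149), also without overlap. Acly had the smallest p, at 354, 362, 296 and 286 CPM (-0.29, SE 0.0705, edgeR adjusted p = 0.968). Both of its CPIP libraries lay below both Sham libraries. Of the 14 satellite glia markers 13 had a log2 fold change above 0 in neurons (median 0.29), with sums of 388, 450, 437 and 465 CPM, and genes induced by dissociation were above 0 in 12 of 12 (1388, 1570, 1624 and 1701 CPM). Inflammation genes of glia were above 0 in 10 of 10 (median 0.37, sums of 781, 846, 882 and 972 CPM), in 9 with both CPIP libraries above both Sham libraries, and none was called. The part of these lists in the neuronal values was not tested.

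In non-myelinating Schwann cells 13 of 17 sterol members tested were above 0 (50.1% of all genes), and none was called (0.0144% of all genes called). The median was 0.20, or 0.13 without Sham 2, 0.14 without CPIP 1 and 0.37 without Sham 1. Idi1 was at 1209, 1012, 1499 and 1539 CPM (0.45, SE 0.128, edgeR adjusted p = 0.434). Sqle was at 286, 183, 330 and 331 CPM (0.48, SE 0.177), with the Sham libraries far apart and the CPIP libraries equal. Tm7sf2 was at 12.4, 4.06, 17.2 and 27.1 CPM (1.301, SE 0.544), from 8, 2, 16 and 20 UMIs. Sterol members with both CPIP libraries above both Sham libraries numbered 8 (17% of all genes). Of the satellite glia markers 2 of 13 were above 0 there, with sums of 2909, 2746, 2592 and 2565 CPM, and their part was not tested. The 493, 326, 598 and 501 cells of this class formed no class when clustering was coarser, so its values rest on the resolution used. At that resolution they fell with some of the satellite glia into a cluster that was left unnamed, and 77.4% of satellite glia kept their name. In myelinating Schwann cells 10 of 18 sterol members and 1 of 8 fatty acid members were above 0 (50% of all genes), none was called (0.0143% of all genes called), and the sums given above overlapped between the groups. Fads1 was at 127, 103, 105 and 92.0 CPM there (-0.26, SE 0.187), with -0.09 without Sham 1.

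In macrophages most members of both branches had log2 fold changes below 0. Of 15 sterol members tested 3 were above 0 (51.7% of all genes) and the median was -0.23, or -0.06 without Sham 1. Of 8 fatty acid members 1 was above 0, the median was -0.38, or -0.68 without CPIP 2 and -0.57 without Sham 2, and in 4 both CPIP libraries lay below both Sham libraries (17.8% of all genes). Scd2 was at 3553, 3437, 1889 and 2337 CPM (-0.69, SE 0.142), Scd at 457, 503, 291 and 352 (-0.54, SE 0.181) and Elovl6 at 148, 126, 80.2 and 105 (-0.53, SE 0.241). Scd2 had an adjusted edgeR p of 0.333 over 6176 genes, of which 0% were called. It stood at -0.67 without Sham 1 and at -0.73 without Sham 2, and it was called with no low-count filter. The satellite glia markers were also lower in both CPIP libraries, with 2 of 11 above 0, a median of -0.51 and sums of 2909, 3101, 2117 and 2424 CPM, and Fabp7 stood at 374, 573, 219 and 191 CPM. The share of glial RNA in the macrophage values was not tested. Macrophages numbered 178, 133, 261 and 370 cells.

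Endothelial cells, the lowest class for most members, had 10 of 18 sterol and 6 of 8 fatty acid members above 0 (50.5% of all genes). They had Idi1 at 158, 156, 201 and 201 CPM (0.38, SE 0.100), Msmo1 at 33.6, 44.8, 49.6 and 53.0 (0.41, SE 0.171) and Sqle at 32.0, 34.8, 40.9 and 48.1 (0.43, SE 0.163). These 3 are named for their small p. Of the 26 members tested both CPIP libraries lay above both Sham libraries in 7 (14.1% of all genes) and below in 2 (20.1%), and no member was called (0.0102% of all genes called). Their satellite glia markers summed to 3409, 3455, 3054 and 3126 CPM, lower in both CPIP libraries. Most of this sum was Glul, at 2604, 2705, 2347 and 2338 CPM, which stood in endothelial cells at 197% of its satellite glia level. The share of glial RNA in the sum was not tested. Elovl2 (18.3, 24.4, 24.6 and 43.2 CPM) was high in CPIP 2, with a log2 fold change of 1.03 without CPIP 1. In pericytes, with 82 to 113 cells per library, Hmgcs1 was at 318, 397, 138 and 229 CPM (-0.96, SE 0.321) and Cyp51 at 338, 458, 212 and 265 (-0.74, SE 0.291), both lower in CPIP, while Acly at 92.3, 68.4, 102 and 201 (0.96, SE 0.453) was higher. With 1 library left out these ranged from -1.39 to -0.66 for Hmgcs1, -0.95 to -0.49 for Cyp51 and 0.36 to 1.35 for Acly, the lowest being that without CPIP 2. Hmgcs1 there rested on 31, 58, 15 and 25 UMIs, Cyp51 on 33, 67, 23 and 29, and Acly on 9, 10, 11 and 22. Scd2 in pericytes was at -1.01 without CPIP 2 and at -0.89 without Sham 1. In fibroblasts the smallest unadjusted p belonged to Scd at 75.9, 98.8, 59.0 and 62.7 CPM, Srebf2 at 98.8, 77.3, 69.8 and 64.6 and Sqle at 110, 129, 99.9 and 82.2. Of the 24 members tested there, both CPIP libraries lay below both Sham libraries in 5 (13.9% of all genes) and above in 2 (15.4%). Fibroblasts numbered 158, 67, 193 and 475 cells. Smooth muscle had Scd2 at 1068, 501, 479 and 520 CPM, where Sham 1 alone was high, and its log2 fold change was -1.08 without Sham 2. Acat2 was at 86.5, 62.0, 50.4 and 34.4 CPM there, from 23, 23, 10 and 8 UMIs. Fads1 was at 97.8, 48.5, 50.4 and 43.0 CPM there, from 26, 18, 10 and 10 UMIs. Smooth muscle numbered 137, 174, 100 and 122 cells. Sterol and fatty acid members above 0 numbered 4 of 9 and 1 of 4 in pericytes (51.6% of all genes), 7 of 17 and 2 of 7 in fibroblasts (50.7%) and 4 of 10 and 1 of 5 in smooth muscle (50%). No member was called in these 3 classes (0% of all genes called in each).

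Whether the CPIP difference itself differed between classes was tested with an interaction term for satellite glia against neurons, non-myelinating and myelinating Schwann cells. No member was called in any of these 3 contrasts (edgeR adjusted p = 1 for each of the 28 members tested), where 0.0397%, 0% and 0% of all genes were called. The smallest unadjusted p was that of Sc5d against myelinating Schwann cells (log2 difference of fold changes -0.61, SE 0.270). The sterol values of satellite glia were thus not shown to differ from those of other classes in their relation to CPIP.

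For 2 late sterol enzymes the same library was the highest in most classes. Tm7sf2 was at 75.3, 78.7, 80.2 and 222.5 CPM in satellite glia, and CPIP 2 was 2.77-fold above the next library. Neurons had 23.7, 23.7, 24.5 and 71.0 CPM, with CPIP 2 2.90-fold above the next. Macrophages, fibroblasts, endothelial cells, pericytes and both Schwann classes also had their highest level in CPIP 2, and smooth muscle did not. In both Schwann classes CPIP 1 also lay above both Sham libraries, and the log2 fold change was 0.84 and 0.98 without CPIP 2 in myelinating and non-myelinating cells. In satellite glia the log2 fold change was 0.99 (SE 0.449), but 0.07 without CPIP 2 and 1.55 without CPIP 1. The last value rests on CPIP 2 alone, and its fit assumes that CPIP 2 varies like the Sham libraries. In neurons the log2 fold change was 1.59 without CPIP 1 and 0.06 without CPIP 2.

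Sc5d, a sterol desaturase, was high in CPIP 1. It was at 145, 178, 233 and 134 CPM in satellite glia, 32.9, 44.9, 64.8 and 31.7 in neurons and 40.5, 30.997, 89.2 and 45.5 in myelinating Schwann cells. Fibroblasts, macrophages, non-myelinating Schwann cells, pericytes and smooth muscle had it highest in CPIP 1 too, and endothelial cells did not. Without CPIP 2 its log2 fold change was 0.75 in neurons and 1.25 in myelinating Schwann cells. In satellite glia its log2 fold change of 0.20 became -0.25 without CPIP 1. Mvk resembled Tm7sf2 at low counts, with 50, 66, 43 and 145 UMIs in satellite glia. Its log2 fold change was 1.24 without CPIP 1 and -0.38 without CPIP 2.

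**Figure D5:**
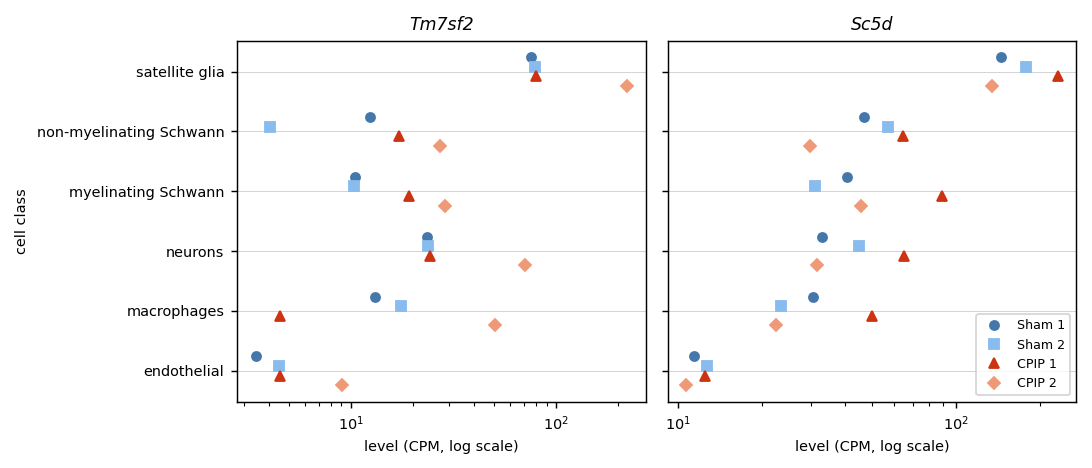
Level of Tm7sf2 (left) and Sc5d (right) in CPM on a log axis in 6 cell classes, with 1 point per library. CPIP 2 is the highest library for Tm7sf2 in all 6 classes shown, at 222.5 CPM in satellite glia, and CPIP 1 is the highest for Sc5d in all but endothelial cells, at 233 CPM in satellite glia.

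Neighbouring lists place the members in their pathway. The lists held 103 symbols, of which 98 were in the count tables, and none of their genes was called between CPIP and Sham in satellite glia. All 8 other genes of sterol synthesis were above 0 there (52.4% of all genes; median 0.14), 5 of them with both CPIP libraries above both Sham libraries (13.1% of all genes). Erg28, a scaffold of the enzymes that remove methyl groups, was at 113, 112, 144 and 119 (0.24, SE 0.107). Of 9 genes that control SREBP and LXR factors 5 were above 0 (median 0.01), with Nr1h3, which encodes an LXR, at 12.8, 14.5, 14.6 and 15.4 CPM. Of 19 genes of cholesterol uptake, efflux and storage 5 were above 0 (median -0.03), and the receptor gene Scarb1, at 29.3, 29.3, 32.2 and 48.6 CPM, was high in CPIP 2 only. Of 20 other genes of fatty acid synthesis 9 were above 0 (median -0.02), and Me1, the malic enzyme that supplies NADPH, was at 186, 201, 162 and 133 CPM (-0.38, SE 0.115). Lpin1, a phosphatidate phosphatase, was at 6.46, 6.48, 8.4015 and 8.83 CPM (0.43, SE 0.137). Of 14 genes of fatty acid oxidation 4 were above 0 (median -0.06), and in 7 both CPIP libraries were the lower ones (19.6% of all genes). Cpt2, a carnitine transferase of mitochondria, was at 22.3, 22.0, 17.6 and 14.3 CPM (-0.45, SE 0.132), and Hadh at 241, 265, 206 and 209 (-0.27, SE 0.0791).

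The neighbouring lists were also compared between satellite glia and neurons. Genes of cholesterol uptake, efflux and storage were higher in satellite glia in 13 of 16 tested and lower in 1 (edgeR), where 41.6% of all genes were called higher and 47.6% lower. Apoe, the lipid carrier, was at 1655 CPM in satellite glia and 55.8 in neurons (log2 difference 4.92), and Lipa, the lysosomal lipase, was lower in satellite glia (-2.87). Other genes of sterol synthesis were split, with 4 higher, among them Lbr (1.98), and 4 lower. Fatty acid oxidation had 5 higher and 3 lower of 13 tested. Other genes of fatty acid synthesis had 10 higher and 5 lower of 17, with Elovl1, an elongase of very long chains, at 3.63 and Acsl1, an acyl-CoA synthetase, at -4.80. Immediate early and dissociation genes were higher in satellite glia in 12 of 12.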

How the data were processed

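Counts of UMIs per gene and cell barcode were used as deposited by the authors for 4 libraries of 3 pooled rats each. Per the labels' protocols they come from BD Rhapsody whole-transcriptome libraries. For the aligner, genome build, annotation and cell calling, no statement was at hand (not given in the sources used here). Nothing in the labels says more about how the libraries of a group differ than that they are separate pools. The p-values of CPIP against Sham within a class thus measure the spread between these libraries. Class contrasts and interactions have library as a block, and their p-values measure the spread left after library and class are fitted.

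The members and lists were chosen with earlier results of these data known. All 31 members are described in satellite glia, and in other classes the 3 with the smallest p. Other genes were named as the 2 with the smallest p in each list or, between classes, from those called; some genes that this rule names are not reported here.

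Barcodes with at least 200 genes and at most 25% mitochondrial UMIs were kept; the lowest UMI count of any deposited barcode was 500. The doublet caller of scanpy 1.11.5 (expected rate 0.05) marked 1, 4, 2 and 278 barcodes, which is too few in 3 libraries, so the 5% with the highest score were removed in each. Cells were clustered on 2000 variable genes without the members (30 components, 15 neighbours, Leiden resolution 1.0, 27 clusters), and clusters were named from marker lists of which 173 of 182 symbols were found. Classes needed 30 cells in every library, and 9 were tested. UMIs were summed per library and class and tested with edgeR 4.0.16 (R 4.3.3; TMM, filterByExpr, quasi-likelihood test, Benjamini-Hochberg adjustment over all genes, threshold 0.05). Class contrasts came from 1 fit over all classes, and interactions from another fit over all classes with added terms for class and group. Printed CPM carry no TMM factor, while fold changes do. Depth is given with the results for satellite glia, macrophages and pericytes. Per library, neurons had 22735599 to 26507971 UMIs, endothelial cells 2432200 to 2904308 and fibroblasts 232745 to 2104828. Myelinating Schwann cells had 483912 to 1098284, non-myelinating Schwann cells 493004 to 929159 and smooth muscle 198393 to 371133. Genes with few UMIs are the least precise. DESeq2 1.42.0 and other filters, scalings and clusterings were tried as alternatives. Simulated counts were put through the fit for satellite glia CPIP against Sham and for a class contrast with both classes drawn from satellite glia. They did not cover the fit over all classes, the interaction or the fits with a library left out, and their outcome is not reported here.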

Additional observations from a re-analysis of the deposited data

How the results depend on the processing

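The comparisons were repeated under 1675 combinations of a result and another setting, and 371 of the summary values and 1197 of the single gene values kept their direction and their side of the threshold. Of the rest, 61 summary values moved, 22 single gene values reversed, 15 were weaker and 9 stronger. Sham and CPIP libraries share replicate numbers, but deviations of same-numbered libraries correlated at -0.297 to -0.027 over the classes, so the numbers are not taken to pair them. With the replicate block no member was called in any class and the sterol median in satellite glia was 0.157. With the pairing crossed, which was added after seeing the data, 1 member was called in macrophages and 1 in non-myelinating Schwann cells.

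With no low-count filter 1 member was called in macrophages, 0 were lower in satellite glia than in myelinating Schwann cells and 2 were lower than in neurons. The shares of all genes called under this and the other settings are not reported here, so the member counts have no background to be set against. With library totals 3 members were higher and 9 lower in myelinating than in non-myelinating Schwann cells, and 1 was lower in satellite glia than in the latter; with cells of at least 1000 UMIs 5 were higher. In neurons the sterol median was 0.0651 with doublets kept and 0.0752 with library totals, and the sterol members together stood at 0.106 as mean log2(CPM + 1). The neuronal fatty acid median, 0.009 in the report's setting, was 0.000942 with DESeq2, 0.00331 with RLE factors, -0.00122 with at least 1000 UMIs, 0.0250 with at most 15% mitochondrial UMIs, -0.00205 with doublets kept and -0.000308 with library totals, and -0.00663 together as mean log2. As mean log2, non-myelinating Schwann cells had 0.110 for sterol and 0.0188 for fatty acid members and macrophages -0.441 for fatty acid members. With at most 15% mitochondrial UMIs the macrophage medians were -0.0991 for sterol and -0.210 for fatty acid members, and Cyp51 in pericytes was 0.22. In satellite glia Scd was -0.0146 less cluster 1, and Ebp was 0.0231 at Leiden resolution 0.5, 0.00846 with doublets kept, and 0.0241, 0.00162 and 0.00869 less clusters 0, 4 and 5 (removals added after seeing the data). The cause of these shifts was not tested. At resolution 0.5 non-myelinating Schwann cells formed no class and gave no value.

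Leaving out each library in turn moved members across the threshold in every class but fibroblasts and non-myelinating Schwann cells, and in each satellite glia cluster. The shares of all genes that passed in the same fits are not reported here, so these crossings have no background to be set against. The lone library left in a group is then assumed to vary like the other group. Fatty acid members above 0 in satellite glia numbered 1 to 3, members higher in myelinating than non-myelinating Schwann cells 5 to 8, and members lower in satellite glia than in myelinating Schwann cells 0 to 1. Medians ranged from 0.112 to 0.169 for sterol and -0.0959 to -0.0579 for fatty acid members in satellite glia, 0.0253 to 0.113 and -0.0236 to 0.0497 in neurons, and -0.326 to -0.0574 and -0.677 to -0.246 in macrophages. In satellite glia single genes ranged from -0.38 to 1.24 (Mvk), -0.24 to 0.64 (Mvd), -0.25 to 0.54 (Sc5d), -0.0474 to 0.14 (Srebf2), -0.0579 to 0.000469 (Fads1), -0.27 to 0.13 (Srebf1), -0.0308 to 0.0945 (Scd), -0.0843 to 0.12 (Elovl2), -0.10 to 0.13 (Hmgcs1) and -0.0546 to 0.0330 (Ebp), and in smooth muscle from -1.08 to 0.00539 (Scd2). Depth limits Mvk, Mvd, Fads2 and the classes with few cells.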
